A study of Mus musculus with 4 samples.

Results

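Genes that write and erase acetyl and methyl marks on histones and DNA were followed in 2 cell types of the developing mouse prostate. The group holds 50 genes that were taken by name from the table of 49671 genes: 10 histone acetyltransferases, 11 zinc-dependent histone deacetylases (HDACs), 7 sirtuins, 4 DNA methylation genes, 3 TET dioxygenases, 4 genes of Polycomb repressive complex 2 (PRC2), 4 KMT2 methyltransferases, 3 other histone methyltransferases and 4 histone demethylases. The rule used names only and no measured value, but the members were chosen with earlier results of these data known. All 50 passed the filter on low values, which kept 18737 genes.

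RNA-seq was performed on epithelial cells sorted by flow cytometry from the tips of the ventral prostate lobes of CD-1 mice, labelled as postnatal days 10 to 13. The study's methods describe the mice as males of mixed background and give an age range that ends 1 day earlier. Basal cells carried high EpCAM and high CD49f, and luminal cells carried high EpCAM and low CD49f. No treatment or engineered allele is named for either group, and both came from pooled animals and had been depleted of cells bearing CD45, CD31 or CD140a. There were 2 libraries per group (basal replicates 1 and 3, luminal replicates 2 and 3). Nothing in the labels says that the libraries came from separate pools of animals, so p-values measure the spread between these libraries, which may be technical. The study asked how metabolism bears on lineage identity and raised histone acetylation as a possible link. The genes of that machinery are described here in unperturbed cells.

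Acetyltransferases add acetyl groups from acetyl-CoA to histone lysines, and acetylated chromatin is in general more open to transcription. HDACs remove the groups with a zinc ion and sirtuins with NAD, and class IIa HDACs (Hdac4, Hdac5, Hdac7 and Hdac9) have weak catalytic activity of their own and act largely as scaffolds that bring corepressors to factors such as MEF2. DNA methyltransferases place methyl groups on CpG cytosines and TET enzymes oxidise them, while the Polycomb, KMT2, Nsd1, Setd2 and Dot1l enzymes methylate histone H3 and the KDM enzymes remove some of those marks.

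Values are the authors' normalized read counts, scaled to a common library total. One recovered read was worth 6.26 and 6.49 units in the basal libraries (replicates 1 and 3, with 3194291 and 3080227 reads) and 31.2 and 19.4 units in the luminal ones (replicates 2 and 3, with 643268 and 1036682 reads). The share of the total in nuclear protein-coding genes was 74.7% to 76.0% in basal and 57.3% to 64.2% in luminal libraries. Both luminal libraries were the shallower ones, so depth and cell type cannot be told apart. The median member had 204.5 and 179.5 reads in basal replicates 1 and 3 but 35.5 and 48.5 in luminal replicates 2 and 3, and 10 members fell under 10 reads in a luminal library. All 5 basal markers (Krt5, Krt14, Trp63, Itga6 and Col17a1) were higher in basal cells by limma, and 5 of 8 luminal markers were past 2-fold toward luminal, 1 of them by limma. Summed markers of stromal and smooth muscle cells reached 136765 and 267053 in basal and 83386 and 266907 in luminal libraries, so these ranges overlapped, although Dcn was 3.59-fold higher in basal averages (adjusted p of 0.143 by limma, 0.036 by edgeR and 0.0089 by DESeq2), and Des was 2.38-fold higher in luminal averages. The 8 immune markers summed to 1734 and 3369 in basal and 852 and 2118 in luminal libraries, with Ptprc at 0 in both luminal libraries. The 5 endothelial markers summed to 1234 and 1472 in basal and 561 and 1153 in luminal libraries. Pdgfra, which encodes the excluded CD140a, was at 3307 and 4144 in basal and 2575 and 8383 in luminal libraries, so its transcript was present after the depletion. The part of these cells in the results below was not tested. In bulk RNA, fewer cells of a type and less RNA per cell cannot be told apart.

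Most of the 50 genes were within 2-fold between basal and luminal cells. The ratio of group averages was at or over 2 toward luminal for 3 members (Hdac9, Hdac8 and Sirt7), against 18.3% of all genes kept, and at or under 0.5, toward basal, for 3 members (Hdac4, Tet1 and Hat1), against 16.3% of all genes kept. Both shares of the members were below the background. Restricted to genes averaging at least 100, the counts were 3 and 3 of 48 members, against 11.4% and 12.8% of genes. The members' median value was 997, beside 350.5 for nuclear protein-coding genes kept, and neither background was matched to their level. limma with Benjamini-Hochberg adjustment over all genes kept called 0 members at an adjusted p under 0.05 (0.694% of genes kept were called), and 11 members had an unadjusted p under 0.05 (18.5% of genes kept). edgeR's quasi-likelihood test on recovered reads called 2 members, Hdac4 and Hdac9 (5.14% of genes kept in either direction, 2.42% toward luminal and 2.72% toward basal), and 9 members at an unadjusted p under 0.05 (19.2%). DESeq2 called Hdac4 alone (4.44%).

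Without a threshold, both luminal libraries lay above both basal libraries for 10 members (23.6% of genes kept), both basal libraries lay above both luminal libraries for 20 members (27.3%), and the groups overlapped for the other 20. The median log2 fold change (luminal minus basal) of the members was -0.32, beside -0.10 over all genes kept, with 17 members above 0 and 33 below. When libraries were rescaled to nuclear protein-coding genes, the median of all genes shifted by 0.31 and the members' median was -0.01, which was -0.22 relative to all genes, as in the deposited scaling (-0.22). Under quantile normalization the members lay 0.01 above all genes, with 25 members on each side of 0. Direction was the same in all 4 scalings for 17 members higher in luminal and 24 higher in basal, and 9 members changed direction in at least 1 of them (Kmt2a, Kmt2d, Nsd1, Kat5, Kat7, Ezh2, Hdac11, Tet3 and Kdm1a), Hdac11 only under the rescaling that moved all genes by 0.31.

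**Figure D1:**
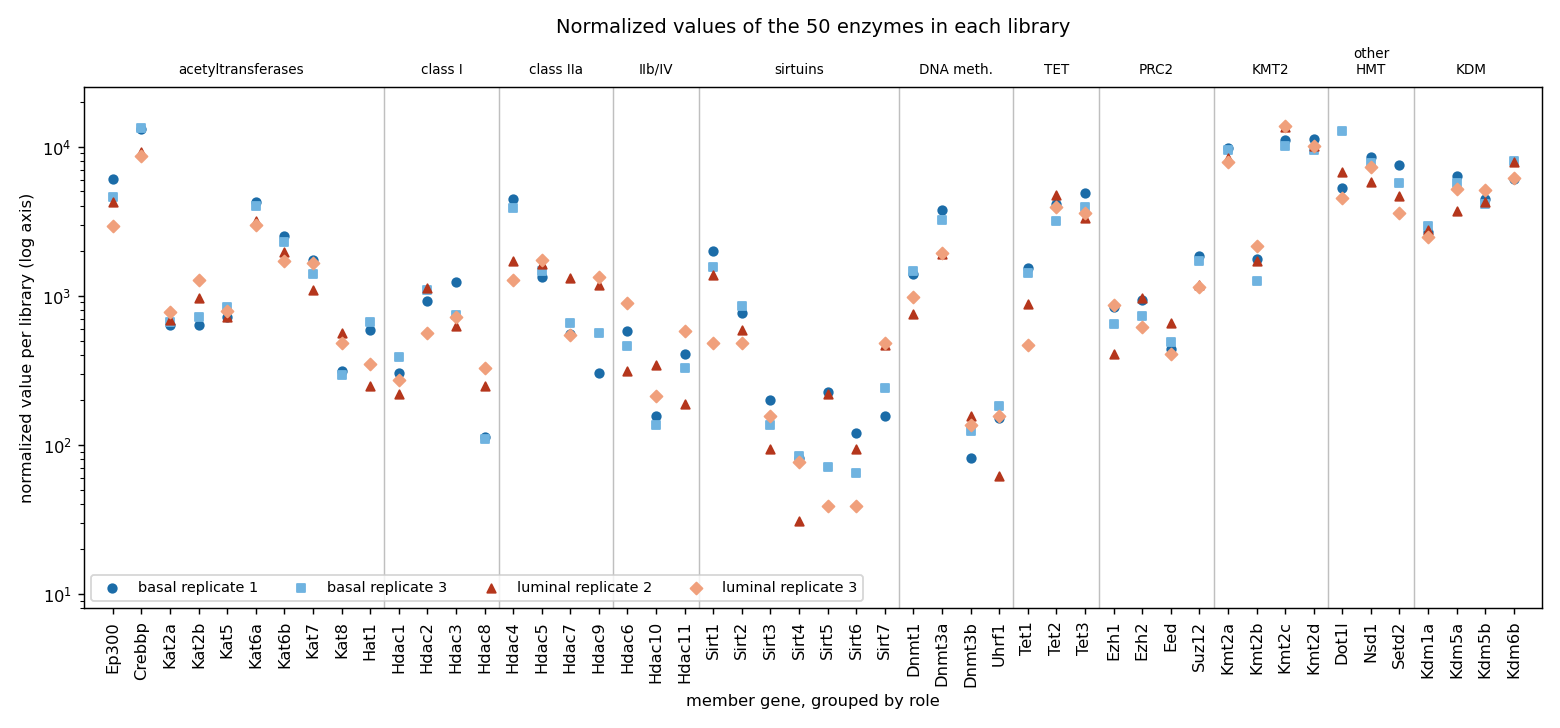
Normalized value of each of the 50 members in the 4 libraries, on a log axis, with genes grouped by role along the horizontal axis. Blue points are basal and red or orange points luminal libraries, and for 20 members the points of the 2 cell types are interleaved.

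**Figure D2:**
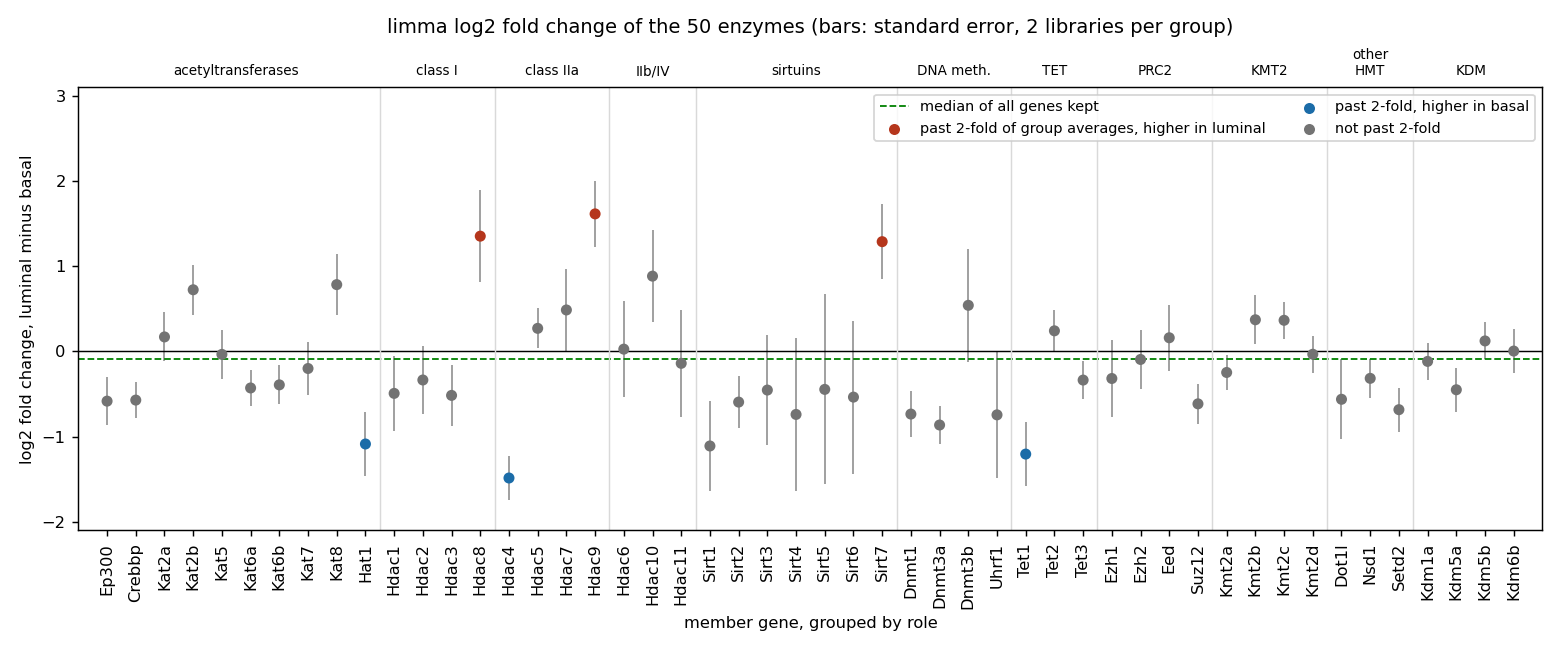
limma log2 fold change (luminal minus basal) of each member on the vertical axis, with its standard error as a bar and genes grouped by role. Hdac9 at 1.61 and Hdac4 at -1.49 are the farthest from 0, and the dashed line is the median of all genes kept at -0.10.

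The clearest contrast was within the class IIa HDACs, where Hdac4 was higher in basal and Hdac9 in luminal cells. Hdac4 (ENSMUSG00000026313, GRCm38 chr1:91928779-92195699, minus strand) had 4428 and 3891 units in basal replicates 1 and 3 and 1714 and 1278 in luminal replicates 2 and 3, from 707, 599, 55 and 66 reads. The 2 groups stood far apart, and even the counting intervals of single libraries did not meet (the lowest basal bound was 3583 and the highest luminal bound 2231). The averages were 2.78-fold higher in basal cells, and the log2 fold change was -1.49 (SE 0.25), with adjusted p of 0.069 by limma, 0.014 by edgeR and 0.019 by DESeq2 (0.014 to 0.355 over all alternatives). The basal excess stayed between 2.43-fold and 3.25-fold when each library was left out and between 2.26-fold and 2.78-fold across scalings, so Hdac4 was past 2-fold in each of these settings. In the annotation 22.4% of its exon length is shared with Gm26720, a long non-coding RNA on the opposite strand. Whether counting used strand is not given in the sources used here, and Gm26720 itself had 182 and 266 units in the basal and 218 and 155 in the luminal libraries, taken in the same order.

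Hdac9 (ENSMUSG00000004698, GRCm38 chr12:34047580-34917095, minus strand) is the closest counterpart in the opposite direction. It had 301 and 559 units in basal replicates 1 and 3 and 1184 and 1336 in luminal replicates 2 and 3, from 48, 86, 38 and 69 reads. Both luminal libraries were above both basal ones, while the basal libraries differed from each other by 1.86-fold. The averages were 2.93-fold higher in luminal cells, and the log2 fold change was 1.61 (SE 0.39), with adjusted p of 0.097 by limma, 0.049 by edgeR and 0.069 by DESeq2 (0.049 to 0.366 over all alternatives). Leaving out each library gave 2.25-fold to 4.19-fold, and other scalings gave 2.93-fold to 3.64-fold.

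Because both genes are read in the same library, their ratio does not depend on scaling between libraries. Hdac9 took 6.36% of the reads of Hdac4 and Hdac9 together in basal replicate 1 (95% Wilson interval 4.83% to 8.33%) and 12.6% in basal replicate 3 (10.3% to 15.2%). In luminal replicate 2 the share was 40.9% (31.4% to 51.0%) and in luminal replicate 3 it was 51.1% (42.8% to 59.4%). This pair was chosen after its values were seen, so the shares are a description, and their intervals cover counting error only.

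Hdac5 and Hdac7, the other class IIa genes, were not past 2-fold. Hdac5 leaned to luminal by a small margin (log2 fold change 0.27, SE 0.23) and lay between 1328 and 1462 in basal and 1620 and 1743 in luminal libraries, and Hdac7 between 551 and 656 in basal and 542 and 1309 in luminal libraries, where the groups overlapped. Per exon length, Hdac4 made up 52.5% and 44.9% of class IIa transcripts in basal replicates 1 and 3 and 19.1% and 17.9% in luminal replicates 2 and 3. Hdac9 made up 3.84% and 6.95% in the same basal libraries and 14.2% and 20.2% in the luminal ones. Hdac5 took 28.4% and 30.4% in basal and 32.5% and 44.0% in luminal libraries. Hdac4 was thus the most abundant class IIa transcript per length in both basal libraries, and Hdac5 or Hdac7 in the luminal ones.

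**Figure D3:**
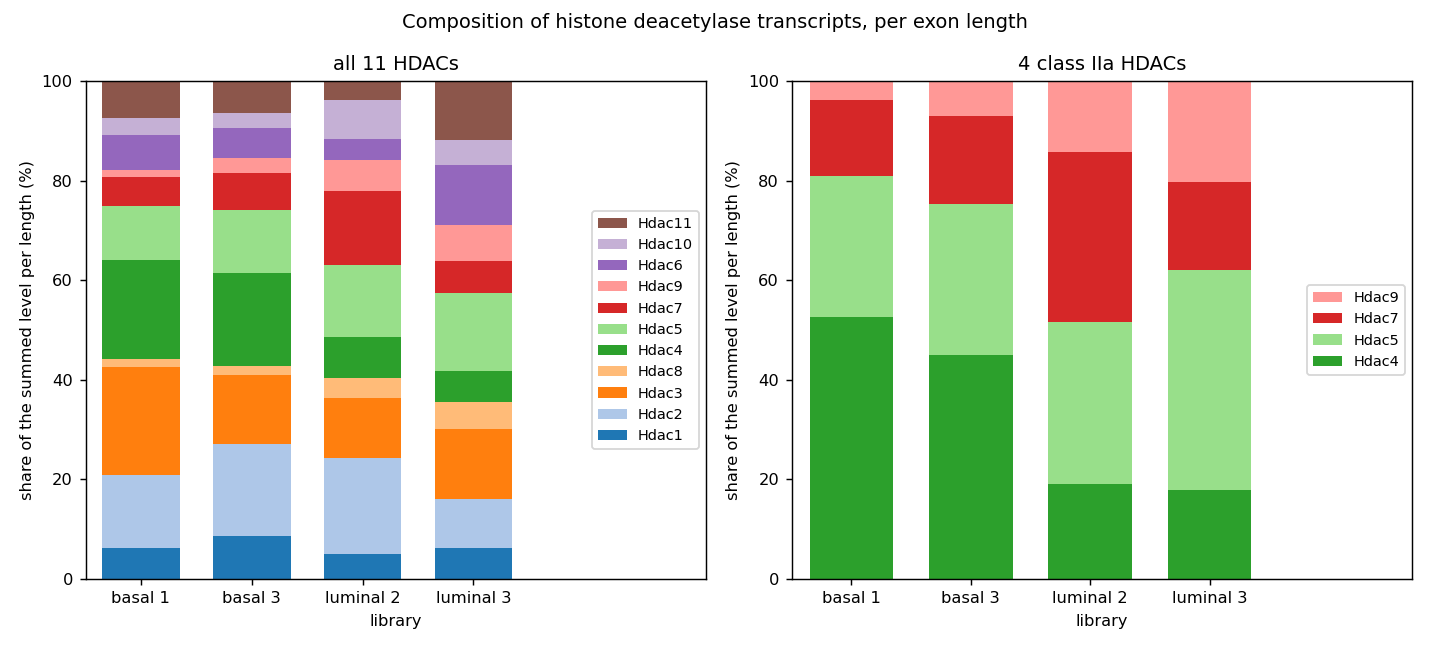
Share of each gene in the summed level per exon length of the 11 HDACs (left) and the 4 class IIa HDACs (right), as stacked bars that add to 100% in each library. The dark green Hdac4 segment of the right panel shrinks from 44.9% or more in basal to 19.1% or less in luminal libraries, and the pink Hdac9 segment is 6.95% or less in basal and 14.2% or more in luminal libraries.

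Start regions are shown for Hdac4 and Hdac9, the only members past the fold threshold with a window holding at most 30 exon bases. A link between these sequences and the expression of the genes was not tested. RefSeq gives 1 start for Hdac4 and 2 for Hdac9 that lie 388206 bases apart, and the gene-level counts do not say which start was used. The 250 bases before each start (GRCm38.p6, minus strand, read 5′ to 3′) carry in capitals the matches, on either strand, to the Sp1 box (GGGCGG), the CCAAT box (CCAAT), the TATA box (TATAAA), the androgen receptor half-site (AGAACA) and the AP-1 site (TGANTCA). The Hdac4 window, chr1:92180342-92180591, lies inside the span of the annotated gene but outside its exons.
Hdac4: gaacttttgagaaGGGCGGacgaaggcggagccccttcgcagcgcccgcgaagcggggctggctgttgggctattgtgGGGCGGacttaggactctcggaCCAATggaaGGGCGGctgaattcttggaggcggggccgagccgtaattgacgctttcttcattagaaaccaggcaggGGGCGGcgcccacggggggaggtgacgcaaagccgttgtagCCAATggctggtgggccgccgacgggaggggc
Hdac9, distal start, chr12:34917096-34917345: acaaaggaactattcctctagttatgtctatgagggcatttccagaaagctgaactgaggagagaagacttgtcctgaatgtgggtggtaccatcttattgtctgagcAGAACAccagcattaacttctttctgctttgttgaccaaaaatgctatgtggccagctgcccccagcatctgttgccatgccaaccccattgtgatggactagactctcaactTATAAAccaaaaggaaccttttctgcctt
Hdac9, internal start, chr12:34528890-34529139: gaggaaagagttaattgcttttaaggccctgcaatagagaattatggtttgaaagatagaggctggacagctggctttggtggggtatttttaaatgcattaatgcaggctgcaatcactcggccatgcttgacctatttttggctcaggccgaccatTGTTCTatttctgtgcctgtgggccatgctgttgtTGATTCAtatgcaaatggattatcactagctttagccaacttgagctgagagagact

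The Hdac4 window was 65.2% G and C with 23 CpG dinucleotides, 4 Sp1 boxes and 2 CCAAT boxes. The distal Hdac9 window was 44.4% G and C with 0 CpG dinucleotides, and it held a TATA box from 29 to 24 bases before the start and 1 androgen receptor half-site. The internal Hdac9 window was 43.6% G and C with 2 CpG dinucleotides, 1 androgen receptor half-site and 1 AP-1 site. In promoters of the same length from all genes in the table, 32.7% held an Sp1 box, 33.8% a CCAAT box, 12.4% a TATA box, 16.1% an androgen receptor half-site and 6.75% an AP-1 site. A match is a run of letters and not a bound site, and E-box (CACGTG), E2F (TTTNGCGC), NRF1 and MEF2 motifs had no match in these 3 windows.

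Over the whole group, 42 members had a RefSeq promoter, 57 in all. The members without one were Hdac1, Hdac3, Hdac10, Kat6a, Kdm5a, Kdm6b, Kmt2b and Nsd1. Of the 57, 38 (66.7%) were CpG rich (over 50% G and C and an observed to expected CpG ratio over 0.6), beside 57.8% of 13555 promoters of nuclear protein-coding genes kept and 30.8% of all promoters. An Sp1 box was in 37 (64.9%), a CCAAT box in 22 (38.6%) and a TATA box in 2 (3.51%) of the member promoters. Androgen receptor half-sites were in 9 (15.8%), a share close to that of all promoters.

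Of the 4 class I HDACs only Hdac8 was past 2-fold. Hdac1 and Hdac2 are the catalytic core of the Sin3, NuRD and CoREST complexes and Hdac3 of the NCoR complex, while Hdac8 works outside these and deacetylates cohesin. Hdac8 had 113 and 110 units in basal replicates 1 and 3 and 249 and 329 in luminal replicates 2 and 3. It was 2.59-fold higher in luminal averages (log2 fold change 1.35, SE 0.54, limma adjusted p = 0.269), but it was one of the low members, with 18, 17, 8 and 17 reads, and the counting interval of luminal replicate 2 (108 to 491) overlapped those of the basal libraries. Hdac1 had 301 and 390 in basal replicates 1 and 3 and 218 and 271 in luminal replicates 2 and 3. Hdac3 had 1234 and 741 in basal and 623 and 716 in luminal replicates 2 and 3. In the deposited scaling both genes were thus lower in each luminal library. Their log2 fold changes were -0.49 (SE 0.44) and -0.52 (SE 0.35), with limma adjusted p of 0.568 and 0.481. On rescaling to nuclear protein-coding genes they were -0.19 and -0.21, smaller than those errors. Hdac1 had 48 and 60 reads in basal replicates 1 and 3 and 7 and 14 in luminal replicates 2 and 3. Its counting intervals overlapped between the groups. Hdac2 had 927 and 1085 in basal replicates 1 and 3 and 1122 and 562 in luminal replicates 2 and 3, so the luminal libraries enclosed the basal ones.

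Of the class IIb and class IV genes, none was past 2-fold. Hdac6, the tubulin deacetylase, lay between 461 and 582 in basal and 312 and 891 in luminal libraries, and Hdac11 between 325 and 407 in basal and 187 and 581 in luminal libraries. The luminal pair spread around the basal pair in both genes, which is 2.86-fold for Hdac6 and 3.11-fold for Hdac11 between luminal replicates. Hdac10, a polyamine deacetylase, lay between 136 and 157 in basal and 213 and 343 in luminal libraries, with a log2 fold change of 0.88 (SE 0.54, limma adjusted p = 0.439).

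Among the sirtuins, Sirt7 stood higher in luminal cells. The other 6 had negative log2 fold changes, which for Sirt3, Sirt4, Sirt5 and Sirt6 were smaller than their errors. Sirt7, a nucleolar deacetylase (ENSMUSG00000025138, GRCm38 chr11:120618372-120625240, minus strand), had 157 and 240 units in basal replicates 1 and 3 and 467 and 484 in luminal replicates 2 and 3, from 25, 37, 15 and 25 reads. The luminal libraries were close to each other and above both basal ones. The averages were 2.40-fold higher in luminal cells (log2 fold change 1.29, SE 0.44, limma adjusted p = 0.214), and the value was 1.98-fold without basal replicate 1, under the threshold. Sirt7 made up 4.31% and 7.78% of sirtuin transcripts per length in basal replicates 1 and 3 and 16.1% and 26.2% in luminal replicates 2 and 3.

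Sirt1, the main nuclear sirtuin, lay between 1552 and 1998 in basal and 484 and 1371 in luminal libraries. Its log2 fold change of -1.11 had a standard error of 0.53, since the luminal libraries differed by 2.83-fold, and it was past 2-fold without luminal replicate 2 or without basal replicate 3 but not with all libraries. Sirt2, a cytoplasmic deacetylase, lay between 770 and 851 in basal and 484 and 592 in luminal libraries (log2 fold change -0.60, SE 0.30). The mitochondrial sirtuins Sirt3, Sirt4 and Sirt5 and the chromatin-bound Sirt6 were low, at 31 to 225 units in any library. They had 1 to 8 reads in each luminal library, and standard errors of 0.65 to 1.12. In Sirt4 both basal libraries (81 and 84) lay above both luminal ones (31 and 77), and in the other 3 the groups overlapped.

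**Figure D4:**
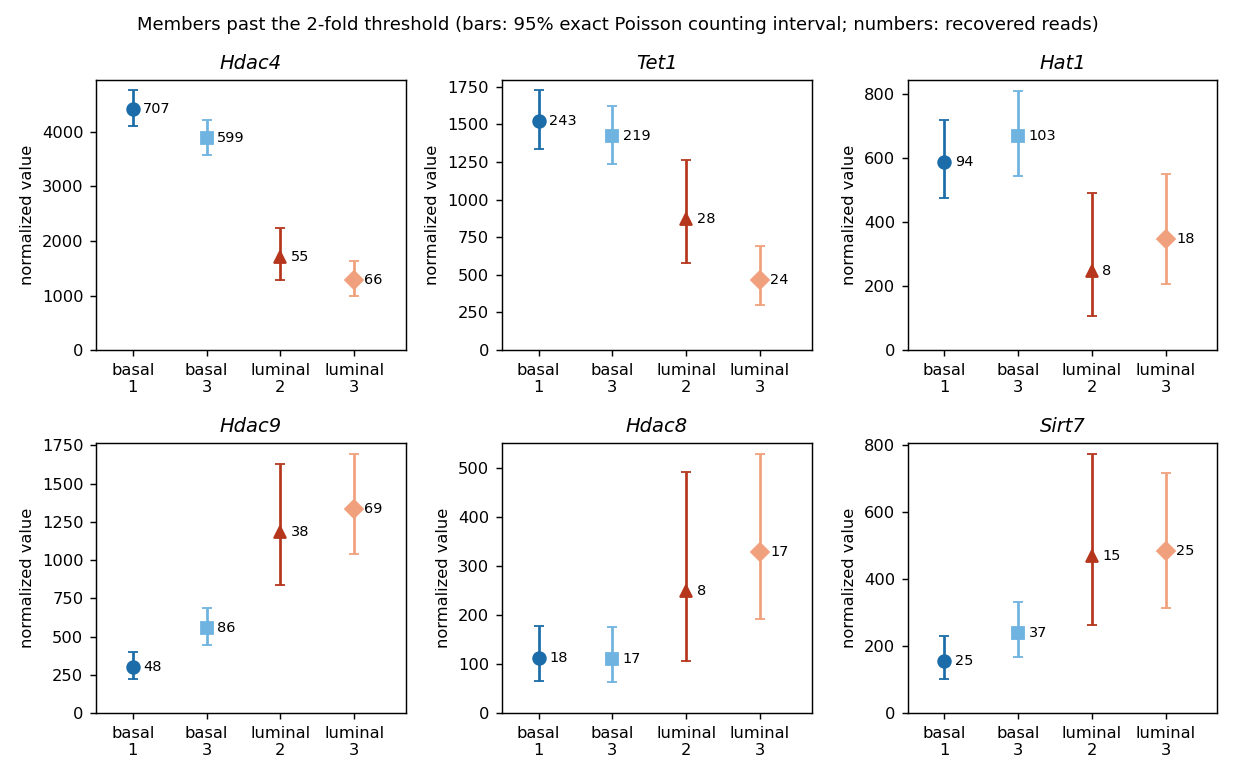
Normalized value in each library of the 6 members past the 2-fold threshold, on linear axes from 0, with the 95% exact Poisson counting interval as a bar and recovered reads as numbers. Intervals of the 2 cell types are separate for Hdac4 and Hdac9, and for Tet1, Hat1, Hdac8 and Sirt7, with 8 to 28 luminal reads, at least 1 basal and 1 luminal interval overlap.

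The 10 acetyltransferases had 7 log2 fold changes below 0 and a median of -0.30, close to the whole group (33 of 50 and -0.32). On rescaling to nuclear protein-coding genes their median was 0.012, and relative to all genes kept it was -0.20 in both scalings and 0.0065 under quantile normalization. Ep300, a broad coactivator acetyltransferase, had 6075 and 4618 units in basal replicates 1 and 3 and 4238 and 2943 in luminal replicates 2 and 3. Crebbp, its close relative, had 13177 and 13368 in basal and 9224 and 8636 in luminal replicates 2 and 3. In the deposited scaling each basal library was above each luminal one in both genes. The log2 fold changes were -0.58 (SE 0.28) and -0.57 (SE 0.21), with limma adjusted p of 0.349 and 0.238. On rescaling to nuclear protein-coding genes they were -0.28 and -0.26. Crebbp was the most abundant acetyltransferase per length in all 4 libraries, at 30.9% and 32.5% of the family in basal replicates 1 and 3 and 27.1% and 24.8% in luminal replicates 2 and 3.

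Hat1, which acetylates newly made histones before they are placed in chromatin, was the acetyltransferase with the largest difference in the deposited scaling (ENSMUSG00000027018, GRCm38 chr2:71388958-71441622, plus strand). It had 589 and 669 units in basal replicates 1 and 3 and 249 and 349 in luminal replicates 2 and 3, from 94, 103, 8 and 18 reads. The averages were 2.10-fold higher in basal cells (log2 fold change -1.09, SE 0.37, limma adjusted p = 0.217), and the value was 1.80-fold without luminal replicate 2, 1.97-fold without basal replicate 3 and 1.68-fold on rescaling to nuclear protein-coding genes. On that rescaling the log2 fold changes of Kat8 (1.09) and Kat2b (1.03) were larger in size than that of Hat1 (-0.78). Since Hat1 serves chromatin assembly in dividing cells, 28 proliferation genes, of which 27 were kept, are set beside it. The summed level of all 28 was 10301 and 12039 in basal replicates 1 and 3 and 8256 and 11289 in luminal replicates 2 and 3, which overlapped. Of the 27 kept, 3 were past 2-fold toward luminal and 4 toward basal (18.3% and 16.3% of all genes kept). A link between Hat1 and proliferation was not tested.

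Kat2b and Kat8 pointed the other way. Kat2b, the PCAF enzyme of the SAGA-type and ATAC complexes, had 633 and 715 units in basal replicates 1 and 3 and 966 and 1278 in luminal replicates 2 and 3 (log2 fold change 0.72, SE 0.29, limma adjusted p = 0.275). Its paralogue Kat2a had 633 and 663 in basal and 686 and 774 in luminal replicates 2 and 3, with a log2 fold change of 0.17 (SE 0.29) that was smaller than its error. Kat8, the MSL and NSL enzyme, lay between 292 and 313 in basal and 484 and 561 in luminal libraries (log2 fold change 0.78, SE 0.36). Of the MYST enzymes Kat6a lay between 3988 and 4271 in basal and 2982 and 3147 in luminal libraries, and Kat6b between 2299 and 2511 in basal and 1704 and 1963 in luminal libraries. The groups overlapped for Kat5 of the NuA4 complex (714 to 838 and 717 to 794) and for Kat7 (1390 to 1728 and 1091 to 1665).

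Of the 4 genes that set and copy DNA methylation, Dnmt3a and Dnmt1 had both basal libraries above both luminal ones, and none was called by any of the 3 tests. Dnmt3a, a de novo methyltransferase, had 3783 and 3228 units in basal replicates 1 and 3 and 1901 and 1936 in luminal replicates 2 and 3. The groups were well separated, with averages 1.83-fold higher in basal cells and a log2 fold change of -0.86 (SE 0.22, limma adjusted p = 0.111, edgeR adjusted p = 0.138). Dnmt1, the maintenance enzyme, lay between 1403 and 1462 in basal and 748 and 987 in luminal libraries (log2 fold change -0.74, SE 0.27). Its partner Uhrf1, which reads hemimethylated DNA, lay between 150 and 182 in basal and 62 and 155 in luminal libraries, where the groups overlapped. Dnmt3b, the other de novo enzyme, had 81 and 123 units in basal replicates 1 and 3 and 156 and 136 in luminal replicates 2 and 3, from 13, 19, 5 and 7 reads, a difference (log2 fold change 0.54, SE 0.66) smaller than its error.

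Of the 3 TET dioxygenases, only Tet1 was past 2-fold. Tet1 (ENSMUSG00000047146, GRCm38 chr10:62804570-62908996, minus strand) had 1522 and 1423 units in basal replicates 1 and 3 and 873 and 465 in luminal replicates 2 and 3, from 243, 219, 28 and 24 reads. Both basal libraries were above both luminal ones, and the luminal libraries differed by 1.88-fold. The averages were 2.20-fold higher in basal cells (log2 fold change -1.21, SE 0.38, limma adjusted p = 0.179), and the value was 1.69-fold without luminal replicate 3, 1.80-fold on rescaling to nuclear protein-coding genes and 1.95-fold under quantile normalization. Tet2 had 4140 and 3183 in basal replicates 1 and 3 and 4706 and 3911 in luminal replicates 2 and 3, where the groups overlapped (log2 fold change 0.24, SE 0.25). Tet3 had 4885 and 3923 in basal and 3334 and 3601 in luminal replicates 2 and 3 (-0.34, SE 0.23, but 0.028 under quantile normalization). Tet2 and Tet3 were the main TET transcripts per length throughout, and Tet1 took 15.5% and 17.8% of the family in basal replicates 1 and 3 and 10.5% and 6.29% in luminal replicates 2 and 3.

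None of the 15 histone methylation and demethylation genes was past 2-fold. In PRC2, which places the repressive methyl mark of Polycomb, Suz12 lay between 1715 and 1854 in basal and 1142 and 1184 in luminal libraries (log2 fold change -0.62, SE 0.23, limma adjusted p = 0.251). The catalytic subunits Ezh1 (650 to 845 in basal and 405 to 871 in luminal libraries) and Ezh2 (728 to 939 and 620 to 966) and the subunit Eed (438 to 487 and 407 to 654) overlapped between groups.

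The KMT2 genes encode the large methyltransferases of promoters and enhancers and were among the more abundant members. Kmt2a had 9845 and 9510 units in basal replicates 1 and 3 and 8383 and 7919 in luminal replicates 2 and 3. Kmt2b had 1766 and 1247 in basal and 1714 and 2149 in luminal replicates 2 and 3. Kmt2c had 11135 and 10172 in basal and 13618 and 13786 in luminal replicates 2 and 3, and Kmt2d had 11204 and 9510 in basal and 10034 and 10126 in luminal replicates 2 and 3. Kmt2c was higher in each luminal library by a small margin (log2 fold change 0.36, SE 0.21), and Kmt2d was level between the groups (-0.03, SE 0.22).

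Dot1l, Nsd1 and Setd2 all had log2 fold changes below 0, but the groups overlapped for Dot1l (-0.56, SE 0.47). Setd2, which marks transcribed gene bodies, lay between 5723 and 7471 in basal and 3563 and 4643 in luminal libraries (-0.68, SE 0.26), and Nsd1 between 7717 and 8486 in basal and 5765 and 7319 in luminal libraries. Dot1l, named after its values were seen, was 1 of 2 members over 2-fold apart between the basal libraries (the other was the low Sirt5), at 5273 units (842 reads) in replicate 1 and 12738 (1962 reads) in replicate 3. A fold between basal libraries as large as that was seen in 3.06% of the 3531 genes that averaged at least 1000. In luminal libraries Dot1l lay between 4531 and 6793, which enclosed basal replicate 1. Its log2 fold change below 0 thus rested on basal replicate 3.

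Of the demethylases, Kdm5a had 6344 and 5710 units in basal replicates 1 and 3 and 3708 and 5228 in luminal replicates 2 and 3 (log2 fold change -0.45, SE 0.26). Its paralogue Kdm5b had 4421 and 4151 in basal and 4269 and 5092 in luminal replicates 2 and 3 (0.12, SE 0.22). Kdm1a, the LSD1 enzyme of CoREST, lay between 2693 and 2949 in basal and 2459 and 2742 in luminal libraries, and Kdm6b, which removes the Polycomb mark, between 6075 and 8016 in basal and 6157 and 7946 in luminal libraries. The groups overlapped for Kdm1a, Kdm5b and Kdm6b.

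To ask whether the balance between close relatives differed, the reads of 1 gene were taken as a share of its pair within each library, for 10 paralogue pairs. The share did not overlap between groups in 6 pairs, each at the smallest 2-sided p that the exact permutation test allows with 2 libraries a side (0.333), so the design could not reach 0.05. The pairs were chosen with earlier results known and have no all-gene background, and this count is a description. In 2 of the 6 the Wilson intervals of the 2 cell types were also separate. Kdm5b took 41.1% and 42.1% of the Kdm5 pair in basal replicates 1 and 3 and 53.5% and 49.3% in luminal replicates 2 and 3. Kmt2d took 50.2% and 48.3% of the Kmt2c and Kmt2d reads in basal and 42.4% and 42.3% in luminal replicates 2 and 3.

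Kmt2b took 15.2% and 11.6% of its pair with Kmt2a in basal replicates 1 and 3 and 17.0% and 21.3% in luminal replicates 2 and 3. Tet3 took 54.1% and 55.2% of the Tet2 and Tet3 reads in basal and 41.5% and 47.9% in luminal replicates 2 and 3, Kat2b 50% and 51.9% of its pair in basal and 58.5% and 62.3% in luminal replicates 2 and 3, and Dnmt3b 2.11% and 3.68% of its pair in basal and 7.58% and 6.54% in luminal replicates 2 and 3. The shares of Ezh2, Hdac2, Crebbp and Kat6b in their pairs overlapped between the cell types. The Crebbp share, at 68.4% and 74.3% in basal and 68.5% and 74.6% in luminal replicates 2 and 3, moved by more between replicates than between cell types.

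**Figure D5:**
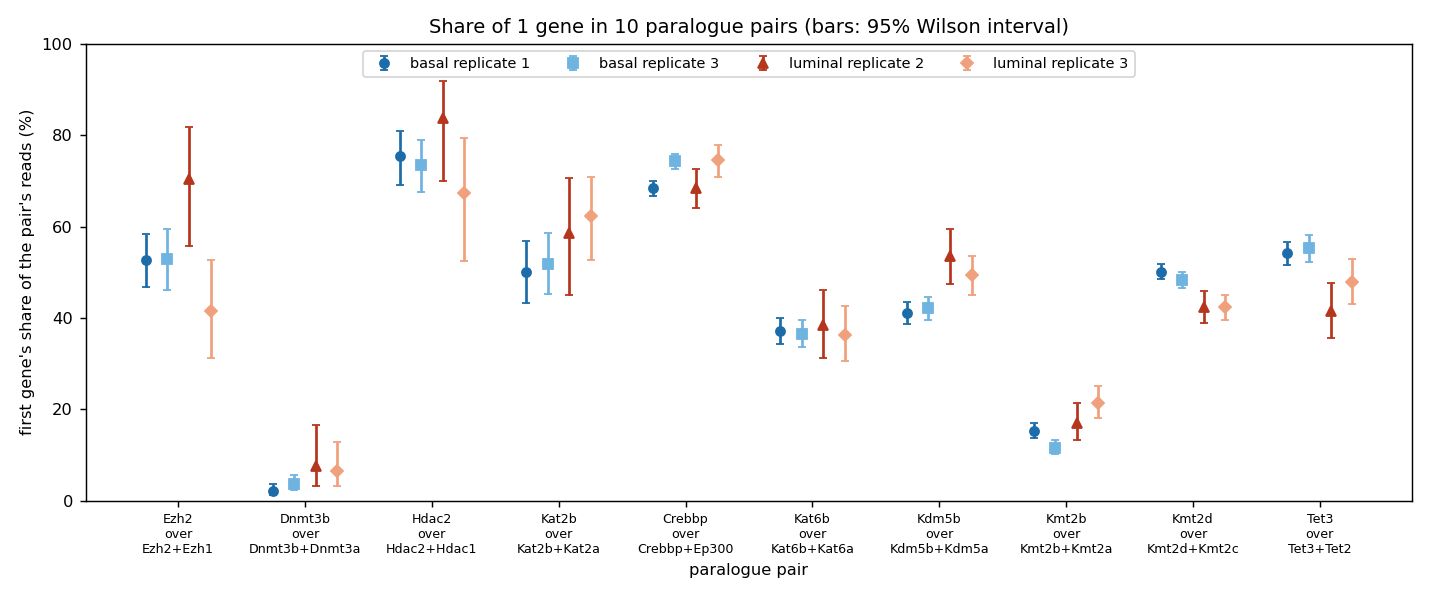
Share of the first-named gene in the reads of its paralogue pair, in percent, for 10 pairs and 4 libraries, with 95% Wilson intervals as bars. For Kdm5b and Kmt2d the basal and luminal intervals are separate, and for Ezh2, Hdac2, Crebbp and Kat6b the points of the 2 cell types overlap.

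Per exon length, the order of the 50 members was alike in both cell types at its ends. Crebbp, Kdm6b and Dot1l ranked within the first 4 in every library, and Dnmt3b, Hdac8, Sirt3, Sirt4, Sirt5, Sirt6 and Uhrf1 ranked 42 or lower in every library. Hdac4 ranked 18 and 17 in basal replicates 1 and 3 and 33 and 39 in luminal replicates 2 and 3, and Hdac9 ranked 49 and 44 in basal and 38 and 37 in luminal replicates 2 and 3.

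The enzymes work in complexes, and 127 partner genes in 7 lists, all kept by the filter, were read the same way. Of these 3 were past 2-fold toward luminal and 9 toward basal (18.3% and 16.3% of all genes kept), limma called 0 (0.694%), DESeq2 called 0 (4.44%) and edgeR called 1 (5.14%). At an unadjusted limma p under 0.05 there were 17 of 127, a lower share than the 18.5% of all genes kept. The median log2 fold change was -0.22, which was -0.13 relative to all genes kept and 0.0072 relative to them under quantile normalization. The called gene was Aebp2, a PRC2 accessory subunit, with 4152 and 6229 units in basal replicates 1 and 3 and 2306 and 2091 in luminal replicates 2 and 3 (log2 fold change -1.21, SE 0.27, adjusted p = 0.048 by edgeR, 0.086 by limma and 0.084 by DESeq2). The 23 subunits of the HDAC corepressor complexes had a median of -0.56, with 20 below 0, 14 with both basal libraries above both luminal ones (27.3% of all genes kept) and 2 past 2-fold toward basal (16.3%). Relative to all genes kept, their median was -0.46, and -0.28 under quantile normalization.

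The 21 other Polycomb subunits had a median of -0.44, with 4 past 2-fold toward basal, a share near the 16.3% of all genes kept, and 0 toward luminal (18.3%). The 24 acetyltransferase complex subunits had a median of -0.16, with 1 past 2-fold in each direction, and the 11 readers of acetyl-lysine and methyl-CpG had -0.22, with 1 toward luminal and 2 toward basal. The 11 KMT2 complex (COMPASS) subunits had -0.22 and the 25 further histone methylation enzymes had -0.01, with 0 past 2-fold in either list. The 12 genes that supply acetyl-CoA, S-adenosylmethionine and NAD had 0.05, with 1 past 2-fold toward luminal. Relative to all genes kept, the Polycomb, acetyltransferase complex, reader and COMPASS lists lay at -0.34, -0.07, -0.12 and -0.13, and under quantile normalization at -0.40, 0.10, 0.07 and -0.06.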

How the data were processed

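RNA-seq reads were aligned with STAR to GRCm38 and counted per gene with HTSeq by the authors, who scaled each library to a common total of aligned reads. The deposited table holds this signal, a normalized read count per gene and library rounded to a whole number. The submitters' processing notes also name Picard. Versions, strand use and duplicate handling are not given in the sources used here. All value columns were mapped to a sample.

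Low values (up to 60 reads) sit on a regular spacing that gives the worth of 1 read, and 97.9% to 99.0% of them were within 0.6 units of it, by library. In all, 533 genes, none of them members, had values on another spacing. Counting intervals and Wilson intervals (95%) computed on these reads hold only the error of counting.

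Genes were kept if every library of at least 1 group reached 10 and that group's average reached 20. limma 3.58.1 was fitted to log2(value + 1) over all genes kept, using a trended prior, and p-values were adjusted by Benjamini-Hochberg. With 1 luminal read worth many units, a fold change on this scale can overstate the difference of genes with few reads, such as Sirt4 (-0.74, against -0.47 by edgeR) and Uhrf1 (-0.75, against -0.49). Fold calls used ratios of group averages at 2 and 0.5. edgeR 4.0.16 (quasi-likelihood) and DESeq2 1.42.0 used the recovered reads. Scripts were tested on simulated data. R 4.3.3, Python 3.11.15, pandas 2.3.3, numpy 2.4.6, scipy 1.17.1 and matplotlib 3.10.9 were used. Symbols, positions and exon lengths are those of GENCODE for GRCm38, where a name was found for 49412 of 49671 genes. Promoters came from RefSeq (GRCm38.p6), and sequence is printed only for windows of members past the fold threshold with at most 30 exon bases of their gene (3 of 7).

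The members, partner lists and pairs were chosen with earlier results of these data known. Values in every library are given for members past the fold threshold or called by limma or edgeR, for class I HDACs, Ep300 and Crebbp, and for pairs whose shares did not overlap; the others are given by range. Partner genes were named where limma or edgeR called them. Alternatives changed the filter, pseudocount, scaling, fold threshold and model and left out each library. Leaving out libraries from the pair shares, the background of genes averaging 100 or more and the per-length shares were chosen after seeing the data.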

Additional observations from a re-analysis of the deposited data

How the results depend on the processing

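limma called 0 members and called 1 (Hdac4) when both groups had to pass the filter or with a pseudocount of 10, while DESeq2 called 1 and edgeR called 2. limma's count stayed at 0 without each library. The median log2 fold change of the members was -0.23 with DESeq2, -0.011 with quantile normalization, -0.0088 on rescaling to nuclear protein-coding genes, and -0.30 to -0.16 without each library. Fold calls were 6 toward luminal (Hdac8, Hdac9, Hdac10, Kat2b, Kat8 and Sirt7) and 1 toward basal (Hdac4) on that rescaling, which moved all genes toward luminal by 0.31 (24.3% and 11.5% of genes kept were then called), 7 and 12 at a threshold of 1.5 (27.4% of genes kept in each direction), and 3 to 5 in each direction without each library. The count toward basal was 5 without luminal replicate 2 (Hdac4, Sirt1, Sirt5, Sirt6 and Tet1), and the count toward luminal was 5 without luminal replicate 3 (Hdac7, Hdac8, Hdac9, Hdac10 and Sirt7). Where 1 library was left in a group, it was assumed to vary like the other group. Hdac4, Hdac8 and Hdac9 were past the fold threshold in all of these settings.

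Of 23 members with values in every library, 18 kept their direction under each alternative. Kmt2d turned positive with DESeq2 (0.0024), median-ratio rescaling (0.0050), quantile normalization (0.37), nuclear protein-coding rescaling (0.27) and, over libraries left out, ranged from -0.15 to 0.084. Kmt2a turned positive with quantile normalization (0.15) and nuclear protein-coding rescaling (0.061), and Tet3 with quantile normalization (0.028). Over libraries left out, Hdac2 ranged from -0.83 to 0.16 and Kdm5b from -0.0050 to 0.25. The log2 ratio difference within pairs ranged from -0.64 to 1.07 for Ezh2 and Ezh1, from -0.52 to 0.74 for Hdac2 and Hdac1, from -0.21 to 0.22 for Crebbp and Ep300 and from -0.024 to 0.10 for Kat6b and Kat6a. The cause of these changes was not tested.

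No paired analysis was possible because the 2 groups share only replicate number 3. With 643268 and 1036682 reads in the luminal libraries, members with few luminal reads could not be resolved: the smallest had 1 read in a luminal library.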
